A study of Homo sapiens with 4 samples.

Results

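PTPN14 and 9 further genes of the Hippo-YAP pathway were followed through polysome profiling of MDA-MB-231 cells, an established human breast cancer line of the triple-negative, mesenchymal type. The 10 genes were PTPN14, NF2, AMOTL2, LATS1, LATS2, YAP1, WWTR1, TEAD1, CCN1 and CCN2, and they were picked by name out of 28198 genes in the table. The study asked how a change of METTL3, the catalytic subunit of the mRNA m6A methyltransferase, alters the translation of mRNAs. Cells depleted of METTL3 had been infected with lentiviruses that restore either WT-METTL3 or K177Q-METTL3, in which a glutamine stands in for an acetylated lysine, and they are called WT and K177Q cells here. Both lines were treated with cycloheximide and spun through sucrose gradients, and poly(A) RNA was sequenced from the pooled sub-polysome fractions, which hold ribosomal subunits and single ribosomes, and from the pooled polysome fractions. A single library of each fraction and genotype, labelled replicate 2 in all 4 cases, was analysed. The promoter of the lentiviral METTL3 was not given in the sources used here, and a line without restored METTL3 was not analysed here. PTPN14 was itself taken up by the study from polysome profiling of these lines, so that its value is not independent evidence of a direction.

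The Hippo pathway is a kinase cascade that restrains tissue growth. When cells are crowded or under little mechanical tension, junctional proteins such as NF2 switch on the kinases LATS1 and LATS2, which phosphorylate the coactivators YAP1 and WWTR1 (also called TAZ) and hold them outside the nucleus. Unphosphorylated YAP1 and WWTR1 enter the nucleus, bind the TEAD transcription factors and switch on target genes, among which CCN1 and CCN2 (formerly CYR61 and CTGF) are the most widely used readouts. PTPN14, a non-receptor tyrosine phosphatase of cell junctions, and AMOTL2, an angiomotin, bind YAP1 and restrain it. MDA-MB-231 cells are known for high YAP activity and for a nonsense mutation of NF2.

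Because the readout is ribosome loading, the sequence around the annotated first codon of 4 of the 10 mRNAs is shown, from the canonical GENCODE 44 transcripts on GRCh38. PTPN14 had the largest shift towards polysomes in K177Q cells among the 10 before any adjustment for coding length. LATS1 and LATS2 are paralogs whose measured shifts differed, that of LATS1 being imprecise, and TEAD1 has an unusual start. Each line gives 12 bases of the 5′ UTR, the first codon in capitals and the 6 coding bases after it.
PTPN14: gaccacatagccATGcctttt
LATS1: atagatgttttcATGaagagg
LATS2: actggactaacaATGaggcca
TEAD1: cccaccgccaaaATTgagccc

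A purine 3 bases before the start codon, the most weighted base of the Kozak context, was present in 9 of the 10 mRNAs and in 87.5% of 10304 expressed protein-coding genes. LATS1, with T at this place, was the exception. TEAD1 is annotated to begin at ATT. Only 23 of the 10304 genes, 0.223%, are annotated to begin at a codon other than ATG after a 5′ UTR of at least 12 bases. Such starts after a shorter 5′ UTR were not counted.

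CCN2, a target gene, is the member whose promoter carries the most matches to the core TEAD motif, and the 250 bases before its start site are therefore shown (RefSeq, GRCh38.p14, minus strand, chr6:131951373-131951622). Capitals mark the motif GGAATG, searched on both strands (CATTCC on the other).
CCN2 promoter: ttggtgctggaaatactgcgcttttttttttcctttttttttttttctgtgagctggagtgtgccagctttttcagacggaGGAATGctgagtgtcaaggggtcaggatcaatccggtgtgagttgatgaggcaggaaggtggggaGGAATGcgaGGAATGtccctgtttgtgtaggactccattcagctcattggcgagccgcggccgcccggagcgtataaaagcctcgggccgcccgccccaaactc

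The 3 matches began 169, 104 and 95 bases before the start of transcription. Among 27305 promoters of the same length (250 bases before and 50 after the start), 14.05% held the motif and 0.143% held it 3 times or more. Distances are counted from the RefSeq start, which need not be that of the canonical transcript used elsewhere. Of the 8 members found among these promoters, PTPN14 had a match 200 bases before this start and YAP1 162 bases before. LATS2 had a match 9 bases after it, and WWTR1, LATS1, NF2 and AMOTL2 had none. For PTPN14, WWTR1 and LATS1, all on the minus strand, the promoter searched lay wholly inside the annotated gene. These promoters ended at 214551852, 149703523 and 149716675, and the genes at 214552449, 149736714 and 149718105. Sequence before the outermost annotated start of these genes was therefore not searched. A match is a description of these letters, and TEAD binding was not measured. CCN1 and TEAD1 had no entry in the promoter table.

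The values are FPKM, fragments per kilobase of transcript scaled to the mapped fragments of the library. Levels of different genes can thus be set side by side per length. Each library is scaled on its own, so equal FPKM in different libraries need not mean equal amounts of the mRNA. The libraries held 15773 to 16193 genes above 0, and an estimate from the smallest values placed their depth at 24200000 to 26400000 fragments. METTL3 itself was at 9.39 FPKM in WT sub-polysomes, 38.7 in WT polysomes, 5.07 in K177Q sub-polysomes and 29.5 in K177Q polysomes; these values do not tell the lentiviral from the remaining endogenous transcript. Of the markers of this line, VIM was at 677 to 1543 FPKM, and CD44, FN1, CAV1 and ZEB1 were detected with a mean of at least 1 FPKM. ESR1, PGR and CDH1, which mark luminal epithelium, were each below 1 FPKM in every library, while KRT8 and KRT18 (271 to 719 FPKM), EPCAM (6.201 to 9.91 FPKM) and GATA3 (2.83 to 4.95 FPKM) were detected.

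The 10 mRNAs covered a wide range of levels, with the target genes at the top and the kinase LATS1 at the bottom. CCN1, CCN2 and YAP1 held the 3 highest places in that order in all 4 libraries, and NF2 and LATS1 the 2 lowest. The level of CCN1 was 8.44 to 9.38 times that of CCN2. YAP1 was at 2.28 to 2.61 times the level of its paralog WWTR1. LATS2 exceeded LATS1 in every library, by 5.54-fold in WT sub-polysomes, 3.44-fold in WT polysomes, 6.48-fold in K177Q sub-polysomes and 5.64-fold in K177Q polysomes. Neighbours in the order lay within counting error of each other in 3 places: LATS2 and PTPN14 in WT sub-polysomes, TEAD1 and WWTR1 in WT polysomes, and PTPN14 and TEAD1 in K177Q polysomes. All 10 genes passed the minimum mean of 1 FPKM used below, as did 10905 of the 28198 genes.

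For each gene, translation efficiency was the polysome FPKM divided by the sub-polysome FPKM, with 0.1 added to both, and the translation efficiency ratio was that of K177Q cells over that of WT cells. Ratios past 1.5-fold in either direction were counted. With 1 library per condition there is no spread between replicates, no test between genotypes was possible, and values written with ± carry an approximate counting standard error only.

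PTPN14 was at 6.38 FPKM in WT sub-polysomes, 6.71 in WT polysomes, 5.10 in K177Q sub-polysomes and 8.12 in K177Q polysomes. The K177Q polysome library was the highest of the 4 and the K177Q sub-polysome library the lowest, with both WT libraries in between and close together. Its translation efficiency was 1.05 in WT and 1.58 in K177Q cells, a ratio of 1.51-fold or 0.59 ± 0.062 on the log2 scale. As deposited, this log2 ratio was made up of 2 shifts of similar size. The polysome level was 0.27 ± 0.041 higher in K177Q and the sub-polysome level differed by -0.32 ± 0.047. With every library rescaled to the same total (TPM) these were 0.36 and -0.52, so that the sub-polysome shift was the larger. PTPN14 ranked 436 of the 10905 genes by translation efficiency ratio, and 96.0% of genes lay below it. It was just past the 1.5-fold line: the ratio was 1.43-fold with 1 FPKM added in place of 0.1, and 1.49-fold when the libraries were scaled by median-of-ratios size factors. About 1646 to 2706 fragments per library stood behind these values.

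NF2 (merlin), a membrane-cytoskeleton scaffold that brings LATS kinases to the plasma membrane, was at 2.44 FPKM in WT sub-polysomes, 1.72 in WT polysomes, 2.34 in K177Q sub-polysomes and 1.62 in K177Q polysomes. The sub-polysome library was the higher one in both genotypes, and the genotypes were nearly level. The translation efficiency of NF2 was 0.716 in WT and 0.705 in K177Q cells, a log2 ratio of -0.024 ± 0.17, which turned to 0.26 when every library was rescaled to the same total (TPM). With about 240 to 382 fragments per library, a log2 difference between -0.35 and 0.30 was within the 95% counting interval.

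AMOTL2, which tethers YAP1 at junctions and is itself a YAP target, was at 8.74 FPKM in WT sub-polysomes, 15.3 in WT polysomes, 9.02 in K177Q sub-polysomes and 20.2 in K177Q polysomes. It was the most polysome-loaded of the 10 mRNAs in both genotypes, with a translation efficiency of 1.74 in WT and 2.22 in K177Q cells. The log2 ratio of 0.35 ± 0.076 lay almost wholly in the polysome fraction, where the K177Q level was 0.40 ± 0.044 higher on the log2 scale, against 0.045 ± 0.062 in sub-polysomes. Of its relatives, AMOTL1 had a log2 translation efficiency ratio of 0.38 ± 0.092, and AMOT is listed at 0 in all 4 libraries.

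LATS1, a kinase that phosphorylates YAP1 and WWTR1, was at 1.18 FPKM in WT sub-polysomes, 1.12 in WT polysomes, 0.963 in K177Q sub-polysomes and 0.942 in K177Q polysomes. Both K177Q libraries were below both WT libraries, by a similar amount, and the translation efficiency was 0.954 in WT and 0.980 in K177Q cells. The log2 ratio of 0.039 ± 0.21 was within counting error of 0, at about 171 to 229 fragments per library.

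LATS2, its paralog and also a YAP target, was at 6.53 FPKM in WT sub-polysomes, 3.86 in WT polysomes, 6.24 in K177Q sub-polysomes and 5.31 in K177Q polysomes. The WT polysome library stood below the other 3. LATS2 had the lowest translation efficiency of the 10 in WT cells, 0.597, and it was at 0.853 in K177Q cells. Its log2 translation efficiency ratio, 0.51 ± 0.11 or 1.43-fold, was the second highest of the 10, and 94.1% of all genes lay below it. In the polysome fraction LATS2 had the largest log2 difference of the 10 between K177Q and WT cells, 0.45 ± 0.081, while the sub-polysome difference was -0.065 ± 0.068.

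YAP1, the coactivator at the centre of the pathway, was at 27.1 FPKM in WT sub-polysomes, 19.8 in WT polysomes, 24.8 in K177Q sub-polysomes and 24.8 in K177Q polysomes. The WT polysome library was the lowest, and in K177Q cells both fractions held nearly the same FPKM as deposited. With TPM the log2 polysome to sub-polysome ratio of YAP1 in K177Q cells was 0.43. The translation efficiency of YAP1 was 0.730 in WT and 0.9996 in K177Q cells, a ratio of 1.37-fold or 0.45 ± 0.051 on the log2 scale, with 91.7% of all genes below it. The polysome level was 0.32 ± 0.037 higher in K177Q on the log2 scale, and the sub-polysome level differed by -0.13 ± 0.034.

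WWTR1 (TAZ) was at 11.0 FPKM in WT sub-polysomes, 7.57 in WT polysomes, 10.8 in K177Q sub-polysomes and 10.1 in K177Q polysomes. As with YAP1, the WT polysome library was the low one of the 4. The translation efficiency was 0.689 in WT and 0.934 in K177Q cells, a ratio of 1.35-fold or 0.44 ± 0.082 on the log2 scale. The polysome difference was 0.41 ± 0.061 and the sub-polysome difference -0.024 ± 0.055, both on the log2 scale.

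TEAD1, a DNA-binding partner of both coactivators, was at 7.56 FPKM in WT sub-polysomes, 8.14 in WT polysomes, 5.65 in K177Q sub-polysomes and 7.95 in K177Q polysomes. The K177Q sub-polysome library stood below the other 3, and the polysome libraries of the genotypes were nearly level. The log2 translation efficiency ratio of 0.38 ± 0.070 thus lay in the sub-polysome fraction, with a log2 difference of -0.41 ± 0.052, while the polysome difference was -0.035 ± 0.046. In sub-polysomes 8.23% of all genes had a lower K177Q to WT ratio than TEAD1. Its paralogs TEAD2, TEAD3 and TEAD4 had log2 translation efficiency ratios of -0.30 ± 0.11, 0.088 ± 0.067 and -0.15 ± 0.098.

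CCN1, a secreted matricellular protein, was at 1004 FPKM in WT sub-polysomes, 1642 in WT polysomes, 1290 in K177Q sub-polysomes and 1935 in K177Q polysomes. Both K177Q libraries were above their WT counterparts, by 0.24 ± 0.00635 on the log2 scale in polysomes and by 0.36 ± 0.00799 in sub-polysomes. Since the sub-polysome difference was the larger, the log2 translation efficiency ratio was -0.13 ± 0.010, the lowest of the 10, which TPM turned to 0.17.

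CCN2, a second secreted protein of this family, was at 119 FPKM in WT sub-polysomes, 176 in WT polysomes, 138 in K177Q sub-polysomes and 218 in K177Q polysomes. It was higher in both K177Q libraries, by 0.31 ± 0.019 on the log2 scale in polysomes and 0.21 ± 0.023 in sub-polysomes as deposited (0.0042 in sub-polysomes with TPM), and the log2 translation efficiency ratio was 0.10 ± 0.030. For both target genes the counting error was small, and variation between cultures, which counting error does not cover, was not measured. In the summed sequencing of bulk cells, a level that differs can come from fewer cells with the mRNA or less mRNA per cell. In a gradient fraction it can also come from the split of the mRNA between fractions or the scaling of the library. These cannot be told apart here.

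In WT cells, AMOTL2 and CCN1 were at least 1.5-fold higher in polysomes than in sub-polysomes, a state shared by 28.1% of all genes, and LATS2 was at least 1.5-fold lower, as were 19.1%. The log2 polysome to sub-polysome ratio of the 10 ranged from -0.74 (LATS2) to 0.80 (AMOTL2), with a median of 0.0020 against 0.14 over all genes, and 5 of the 10 were above 0 (57.3% of all genes). In K177Q cells, PTPN14, AMOTL2 and CCN2 were past 1.5-fold towards polysomes (30.2% of all genes) and none was past it in the other direction (21.3%). CCN1, at 1.499-fold, was just under the threshold. The range in K177Q cells was -0.51 (NF2) to 1.15 (AMOTL2), the median 0.24 against 0.16 over all genes, and 5 were above 0 (57.2%). YAP1, WWTR1, LATS1, LATS2 and NF2 were at or below 0 in both genotypes as deposited, but with every library rescaled to the same total YAP1, WWTR1, LATS1 and LATS2 were at 0.43, 0.33, 0.37 and 0.20 in K177Q cells, and LATS1 was at 0.058 in WT cells. With that scaling 9 of the 10 were above 0 in K177Q cells (73.9% of all genes) and 5 were past 1.5-fold (50.3%).

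**Figure D1:**
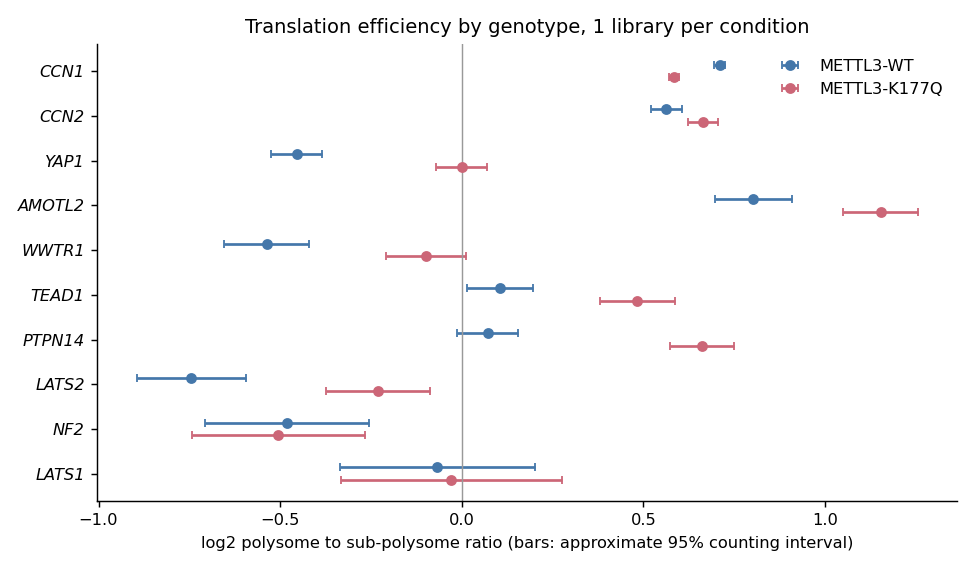
Log2 polysome to sub-polysome ratio of each of the 10 mRNAs in WT (blue) and K177Q (red) cells, 1 library per fraction and genotype; bars are approximate 95% counting intervals. The intervals of the genotypes lie apart for PTPN14, LATS2, YAP1, WWTR1, TEAD1, AMOTL2, CCN1 and CCN2 and overlap for NF2 and LATS1.

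By translation efficiency ratio, 1 of the 10 genes was at least 1.5-fold higher in K177Q cells, PTPN14, where 4.08% of all genes were, and 0 were at least 1.5-fold lower, where 7.03% were. The log2 ratio was above 0 for 8 of the 10 (48.9% of all genes), with a median of 0.36 against -0.0095 over all genes. LATS2, YAP1, WWTR1, TEAD1 and AMOTL2 lay between 1.27-fold and 1.43-fold, under the threshold. In the polysome fraction alone, 0 of the 10 were past 1.5-fold in K177Q over WT cells in either direction (2.13% of all genes higher and 3.13% lower), 7 were above 0 (46.2%), and the median log2 difference was 0.29 against -0.023. In the sub-polysome fraction, 0 were past 1.5-fold (4.01% higher and 2.94% lower), 3 were above 0 (49.4%), and the median was -0.060 against -0.0039.

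The shift of the 10 mRNAs was made up in 3 different ways. PTPN14, YAP1, WWTR1 and LATS2 were higher in polysomes and lower in sub-polysomes of K177Q cells, a pattern of 20.8% of all genes. AMOTL2, CCN1 and CCN2 were higher in both fractions (25.5% of all genes), although with TPM AMOTL2 was lower in sub-polysomes and the sub-polysome difference of CCN2 was 0.0042, inside its counting interval. LATS1, TEAD1 and NF2 were lower in both (29.8%), although TEAD1 and NF2 were slightly higher in polysomes with TPM. None was lower in polysomes and higher in sub-polysomes (23.96%). As deposited, the sub-polysome difference of WWTR1, LATS2 and AMOTL2 was within the 95% counting interval of 0. The same held for the polysome difference of TEAD1 and for LATS1 and NF2 in either fraction. With TPM the sub-polysome differences of WWTR1, LATS2, LATS1 and NF2 were -0.23, -0.27, -0.46 and -0.25, each beyond its counting interval.

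The signs depended on how the libraries were scaled, because the FPKM totals ranged from 767949 to 1037594. Rescaling every library to the same total (TPM) raised the log2 translation efficiency ratios of the 10 by 0.27 (LATS1) to 0.30. Setting the totals equal after leaving out ribosomal protein genes raised them by 0.22 (LATS1) to 0.24; the shift is a little smaller for low levels because of the 0.1 FPKM added. All 10 ratios were then above 0, NF2 at 0.26 and CCN1 at 0.17 with TPM among them, and so were 78.8% of all genes with TPM and 73.7% with equal totals. The number of members past 1.5-fold was 6 under either scaling, where 18.2% and 13.8% of all genes were past it. Relative to the median of all genes, the median of the 10 was 0.37 higher on the log2 scale both as deposited and with TPM. Within fractions, TPM turned the sub-polysome difference of AMOTL2 to -0.16, it took that of CCN1 from 0.36 to 0.16 and that of TEAD1 to -0.62, past 1.5-fold lower (9.59% of all genes), and it turned the polysome differences of TEAD1 and NF2 to 0.057 and 0.0083.

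Translation efficiency ratios also rose with the length of the coding sequence over all genes. PTPN14, with 3564 coding bases, fell in the longest decile of genes, in which the median log2 ratio was 0.25 and 10.1% of 1031 genes were past 1.5-fold in the same direction; 90.1% of that decile lay below PTPN14. In its decile by level, 2.02% of 1091 genes were past 1.5-fold and 98.0% lay below it. Removing a smooth trend on coding length took PTPN14 from 0.59 to 0.37 and the median of the 10 from 0.36 to 0.26. Of the 10, 7 were then above 0 (49.7% of all genes) and none past 1.5-fold (2.94% higher and 3.88% lower). LATS1 and LATS2, in the same length decile, had values on opposite sides of the trend, LATS1 at -0.17 and LATS2 at 0.31 relative to it. The counting error of LATS1 was 0.21, so that its side of the trend was not resolved. WWTR1 and TEAD1, with coding sequences of 1203 and 1281 bases, were 0.47 and 0.39 above it and YAP1 was 0.41 above it. These 3 values exceeded the 0.37 of PTPN14 once the trend was removed, but the gaps lay within counting error. The counting errors were 0.082, 0.070 and 0.051 for these 3 and 0.062 for PTPN14, so that their order was not resolved. The part of coding length in the values was not tested further.

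The 10 mRNAs also had features in common that played no part in their choice. Their 5′ UTRs, from 167 bases in AMOTL2 to 621 in TEAD1, were all longer than the median of 129 bases over 10304 genes. An ATG upstream of the annotated start was present in 7 of the 10, against 37.6% of genes: LATS2 had 8, PTPN14, LATS1 and NF2 had 2 each, and YAP1, WWTR1 and TEAD1 had 1 each. AMOTL2, CCN1 and CCN2 had none, and these were the 3 mRNAs with the highest polysome to sub-polysome ratio in WT cells, with a median log2 value of 0.71 against -0.45 for the other 7. Over all genes the median was 0.32 for 6432 genes without an upstream ATG and -0.022 for 3872 genes with one, with a standard deviation of 0.78 and 0.75 across genes. In K177Q cells the median log2 ratio was 0.66 for the 3 members without an upstream ATG and -0.029 for the 7 with one. The order was broken there, with PTPN14 at 0.662, above CCN1 at 0.584. The 3′ UTR of PTPN14 was 9222 bases and that of TEAD1 7515 bases, where the median was 1204. By count, 9 of the 10 transcripts had more matches to GGACT, a core motif of METTL3 methylation, than the median gene (3). In transcript length, 8 of the 10 were above the median gene. Per length the motif was not a shared feature, since 4 of the 10 had more matches per kilobase than the median gene (0.931). PTPN14 had 8 matches in 13360 bases or 0.599 per kilobase, and CCN2 had 0. Methylation was not measured in these libraries.

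The members lie on several chromosomes, and all coordinates are those of GRCh38. PTPN14 spans 19 exons on the minus strand at chr1:214348700-214552449, and YAP1 spans 9 exons on the plus strand at chr11:102110447-102233424. LATS1 (chr6:149658153-149718105, minus strand) and CCN2 (chr6:131948176-131951372, minus strand) share a chromosome, as do YAP1 and TEAD1 (chr11:12674421-12944737, plus strand). AMOTL2 and WWTR1 are both on the minus strand of chromosome 3, NF2 is on chromosome 22, LATS2 on chromosome 13, and CCN1 at chr1:85580761-85584589 on the plus strand.

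Of 83 further genes of the pathway, 73 passed the minimum level. Of these, 0 were at least 1.5-fold higher in translation efficiency in K177Q cells (4.08% of all genes) and 1 was lower (7.03%), 54 were above 0 (48.9% of all genes), and the median log2 ratio was 0.13. With TPM 68 were above 0, as were 78.8% of all genes. The values of these lists are as deposited, and TPM raises the log2 ratios by up to about 0.30, so that many of the negative ones turn positive with it. Above the LATS kinases, the core kinase cascade had 13 measured genes with a median of 0.096, led by the kinases TAOK1 (0.35) and MINK1 (0.35). STK3 and STK4, the MST kinases that activate LATS, were at -0.22 ± 0.16 and -0.027 ± 0.11, both within the 95% counting interval of 0. With the coding-length trend removed the median of this group was 0.0066, and 7 of the 13 were above 0 (49.7% of all genes). Junction and polarity scaffolds had a median of 0.32 over 15 genes, with 13 above 0 (48.9% of all genes). PTPN21, the closest paralog of PTPN14, was at 0.58 ± 0.14, and MPP5 (PALS1), a polarity scaffold, at 0.46. CRB3, a Crumbs polarity protein, was the 1 gene past 1.5-fold lower, at -2.04 ± 0.41, with 1.93 FPKM in WT sub-polysomes, 2.43 in WT polysomes, 3.44 in K177Q sub-polysomes and 0.967 in K177Q polysomes. WWC2, a relative of the NF2 partner KIBRA, was at -0.023. With the coding-length trend removed, the median of the junction group was 0.048 over the 14 genes with a coding length, below that of the cascade inhibitors (0.081).

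Inhibitors of the cascade had a median of 0.14 over 13 genes. LIMD1, a LATS-binding LIM protein, was at 0.55 ± 0.12, whereas WTIP, a relative of LIMD1, was at -0.55 ± 0.12 and FGFR1OP2, a subunit of the STRIPAK phosphatase complex, at -0.48 ± 0.097. Genes of YAP1 and WWTR1 retention and turnover had a median of 0.032 over 11 genes, from YWHAG, an adaptor that binds phosphorylated YAP1, at 0.42 ± 0.046 and BTRC, a ubiquitin ligase subunit, at 0.19, to CSNK1E, a kinase that marks YAP1 for degradation, at -0.10 and SFN at -0.16 ± 0.036. The 4 measured TEAD and VGLL genes, which leave out TEAD1, had a median of -0.13, with VGLL4, a TEAD-binding corepressor, at -0.11, and TPM turned this median to 0.17.

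All 17 further YAP and TAZ target genes were measured, with a median log2 translation efficiency ratio of 0.046. Of these, 12 were above 0 (48.9% of all genes) and 0 past 1.5-fold (4.08% higher and 7.03% lower). ARHGEF17 was at 0.50 ± 0.12 and TGFB2, a growth factor, at 0.48 ± 0.074, and the lowest were FJX1 at -0.55 ± 0.049 and RBMS3 at -0.28 ± 0.13. ANKRD1, named after its values were seen as the other target with an abundant mRNA and more than 1 TEAD motif match, was lower in both K177Q fractions (487 against 437 FPKM in WT and K177Q polysomes, 327 against 289 in sub-polysomes), unlike CCN1 and CCN2. In polysomes the median log2 difference of the 17 targets was 0.10 and 12 were above 0 (46.2% of all genes). In sub-polysomes it was -0.029 and 8 were above 0 (49.4% of all genes).

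The phosphatase family of PTPN14 was also followed. Of 16 other non-receptor tyrosine phosphatases, 10 passed the minimum level. All 10 had a log2 translation efficiency ratio above 0 (48.9% of all genes), and 0 were past 1.5-fold (4.08% higher and 7.03% lower). Their median was 0.42, from 0.032 ± 0.17 for PTPN18 and 0.11 ± 0.077 for PTPN2 to 0.55 ± 0.054 for PTPN11 (SHP2) and 0.58 for PTPN21. All 10 were lower in the sub-polysomes of K177Q cells, where PTPN21 differed by -0.44 and PTPN11 by -0.43 on the log2 scale. In polysomes 7 of the 10 were higher. Of all genes, 49.4% were higher in sub-polysomes and 46.2% in polysomes as deposited. With TPM these shares were 24% and 60.9%, so that most genes were then lower in K177Q sub-polysomes. With the coding-length trend removed the median was 0.30 and 9 of the 10 remained above 0 (49.7% of all genes). The level of PTPN14 was 1.88 to 3.06 times that of PTPN21.

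The genes whose 4 log2 values, each gene centred on its own mean, were nearest to those of PTPN14 were LARP1 (Euclidean distance 0.030), SETD5 (0.058), ETV3 (0.059), PHF20 (0.059) and WDR26 (0.073), over 4 libraries. LARP1, at 24.8 FPKM in WT sub-polysomes, 25.5 in WT polysomes, 19.9 in K177Q sub-polysomes and 30.9 in K177Q polysomes, followed the pattern of PTPN14 at a higher level. The study lists both LARP1 and PTPN14 among its genes with raised translation efficiency in K177Q cells, so that their likeness is not independent evidence. TEAD1 was the nearest of the other 9 members, at 0.24, with 393 genes closer.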

How the data were processed

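The table holds FPKM values that the authors deposited for each gene of poly(A)-selected, strand-directional libraries; the submitters' processing notes name STAR 2.7, StringTie 2.1.5 and hg38 without giving their roles, and the annotation is not given in the sources used here. The table's 4 value columns that match no listed sample were not used. FPKM were used as deposited, with 0.1 added before log2, and genes averaging 1 FPKM or more across these libraries were kept. Ratios past 1.5-fold were counted; no p-value was computed, with 1 library per condition.

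Depth was estimated from FPKM times transcript length of genes with a single transcript, whose lowest products (28 to 52, limits chosen after looking at the values) were taken as 1 fragment; the resulting errors cover counting only and fragments need not be independent molecules. Transcripts and positions came from GENCODE 44 on GRCh38, promoters from RefSeq GRCh38.p14; symbols were matched directly or by older symbols, and 94.5% of kept genes had a coding length. The trend on coding length was a lowess with span 0.3.

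The 10 members, the further lists and the alternatives were chosen with earlier results of these data known. Named genes were the 10 members, METTL3, the 2 highest and 2 lowest ratios of each list, paralogs of members, markers, and the 5 genes closest to PTPN14; exceptions are stated, and some items that the rule selects are not reported here. Alternatives were pseudocounts of 0.01 and 1, no minimum or a mean of 5 FPKM, TPM, equal totals without ribosomal protein genes, size factors, the length trend and a 2-fold threshold. The scripts were tested on simulated data. Python 3.11.15, pandas 2.3.3, numpy 2.4.6, statsmodels 0.14.6 and matplotlib 3.10.9 were used.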

Additional observations from a re-analysis of the deposited data

Results flagged for a closer look

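PTPN14 and YAP1 went in opposite directions in the polysome and the sub-polysome fraction of K177Q against WT cells, each beyond its counting error. For PTPN14 the log2 difference as deposited was 0.27 in polysomes and -0.32 in sub-polysomes, 0.59 apart. With TPM these differences were 0.36 and -0.52. For YAP1 the difference as deposited was 0.32 in polysomes and -0.13 in sub-polysomes, 0.45 apart, and with TPM 0.42 and -0.33. With 1 library per condition the difference between the fractions was not tested for either gene.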

How the results depend on the processing

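No paired analysis was possible because each condition had 1 library. Of the results that answer a comparison, 49 values under an alternative kept their direction and size, 12 moved and 5 changed sign. The log2 translation efficiency ratio of PTPN14 was 0.89 with TPM, 0.82 with equal totals without ribosomal protein genes and 0.37 with the coding-length trend removed. The number of members at least 1.5-fold higher was 6 with TPM (18.2% of all genes) and 6 with equal totals (13.8%), and it was 0 with 1 FPKM added (1.46%), with size factors (3.74%), with the trend removed (2.94%) and at 2-fold (0.77%). The median ratio of the 10 was 0.66 with TPM and 0.60 with equal totals, against 0.29 and 0.23 over all genes. The median polysome to sub-polysome ratio of the 10 in WT cells was close to 0 as deposited. It was -9.2e-05 with 0.01 FPKM added, -0.020 with equal totals, -0.087 with size factors and -0.31 with the trend removed. Over all genes these medians were 0.15, 0.12, 0.052 and 0.0063. In K177Q cells the median of the 10 was 0.67 with TPM and -0.099 with the trend removed, against 0.59 and 0.019 over all genes. Among single genes, the ratio of NF2 turned to 0.26 with TPM and 0.20 with equal totals, that of CCN1 to 0.17 and 0.11, and that of LATS1 to -0.17 with the trend removed, while 51 values stayed and 14 moved without a change of sign. TPM and equal totals multiply all values of a library by 1 factor, so that they shift the log2 ratios of the genes by nearly the same amount; the cause was not tested for changes under other settings. A minimum mean of 5 FPKM left 8 members, without LATS1 and NF2, whose low levels limit their precision.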

Other observations

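Among the mesenchymal markers of the line, ZEB1, a repressor of epithelial genes, had a log2 translation efficiency ratio of 0.53 ± 0.14 and FN1, fibronectin, 0.47 ± 0.072, while VIM was at -0.029 ± 0.013. Of the 6 markers on this list, 3 had a log2 translation efficiency ratio above 0 as deposited (48.9% of all genes). With TPM all 6 did (78.8% of all genes). The median was 0.012 as deposited and 0.31 with TPM. With the coding-length trend removed the median was 0.090, and 4 of the 6 were above 0 (49.7% of all genes). The ratios of ZEB1, FN1 and VIM given here are not adjusted for coding length.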
